A study of Mus musculus with 4 samples.

Results

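The IL-2 and common gamma chain receptor genes were examined in CD4 T cells that carried an empty or a *Tox*-encoding retrovirus. The set held 10 genes, namely the cytokine gene *Il2*, the receptor genes *Il2ra*, *Il2rb*, *Il2rg*, *Il4ra*, *Il15ra*, *Il21r* and *Il9r*, and the transcription factor genes *Stat5a* and *Stat5b*. They were taken by gene symbol from the 24369 genes listed for each library. All 10 were listed, and all 10 were among the 14143 genes that passed the filter on low counts. Naïve CD4 T cells from the spleens of wild-type C57BL/6 mice were activated without polarizing cytokines, on anti-CD3-coated plates with anti-CD28 in solution and human IL-2. On day 2 they were transduced with MSCV-IRES-eGFP, the empty vector (EV RV), or with MSCV-Tox-IRES-eGFP (Tox RV), in which *Tox* is expressed from the viral promoter. After 5 days of culture the cells of both groups were restimulated through the T cell receptor, and GFP+ CD4 cells, that is, transduced cells, were sorted for RNA-seq. There were 2 libraries per group, each from a different mouse of that group, and the age of the mice is not given in the sources used here.

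IL-2 is made by T cells after T cell receptor stimulation and acts on the same cells and on their neighbours. Its high-affinity receptor is built of an alpha chain (CD25, *Il2ra*), a beta chain (CD122, *Il2rb*) and the common gamma chain (CD132, *Il2rg*). The gamma chain is shared with the receptors for IL-4, IL-7, IL-9, IL-15 and IL-21. The beta and gamma chains bind the kinases JAK1 and JAK3, which phosphorylate STAT5A and STAT5B, and these move to the nucleus and activate genes that include *Il2ra* itself. Activated T cells raise CD25 strongly, whereas resting T cells depend on IL-7 and its receptor. The IL-2 added to these cultures was a human protein and so was not a source of *Il2* reads.

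The libraries held 46989997 to 74548723 expected counts, RSEM's estimate of fragments per gene. EV RV replicate 1 stood apart: 24.7% of its counts fell on *Rn45s*, a ribosomal RNA precursor, against 7.14% to 12% in the other libraries, and on the first principal component it lay at -53.8 while the others lay between 5.70 and 25.8. For some of the results that moved with this library, values without it are given. Other values may depend on it as well. *Tox* itself was at 11.7 and 5.73 CPM, counts scaled to a common library size by TMM, in EV RV, compared with 121 and 99.9 in Tox RV. Its log2 fold change was 3.68 (SE 0.38), with an adjusted p of 0.490 by edgeR's quasi-likelihood test, equal to the lowest among all genes, whereas DESeq2 called *Tox* with an adjusted p of 3.79e-24. *Cd4* was at 324 to 479 CPM in the 4 libraries. The marker list of CD4 T cells summed to 2218 to 3113 CPM in EV RV and 2655 to 2935 in Tox RV, with 4 of its 9 genes (*Cd4*, *Cd3d*, *Cd3g* and *Cd247*) higher in both Tox RV than in either EV RV library, against 18.6% of all genes. The log2 fold changes of *Cd3e*, *Cd28*, *Thy1* and *Cd5* were negative, from -0.84 to -0.12, with overlapping groups. Its part in the results below was not tested. Few transcripts came from the marker genes of CD8 T cells, B cells and myeloid cells. The 2 CD8 genes summed to 3.88 to 4.77 CPM over all libraries, with 0 of the 2 free of overlap. The B cell list summed to 1.16 and 1.62 CPM in EV RV, compared with 1.42 and 1.52 in Tox RV, with *Ms4a1* and *Pax5* at 0 throughout and both tested genes of the 5 overlapping between groups. The myeloid and dendritic list summed to 1.61 and 0.985 CPM in EV RV, compared with 1.58 and 1.04 in Tox RV. Of its 3 tested genes *Itgam* was higher and *Fcer1g* lower in both Tox RV libraries, against 18.6% and 17.4% of all genes. Neither gene exceeded 0.711 CPM in any library. The list of NK genes summed to 134 and 128 CPM in EV RV, compared with 105 and 80.5 in Tox RV. All 5 tested genes had negative log2 fold changes. Of these only *Eomes*, which T cells can also express, was lower in both Tox RV libraries, against 17.4% of all genes. It was at 79.8 and 108.6 CPM in EV RV and 72.2 and 71.2 CPM in Tox RV, most of the sum in each library. *Klrk1* was at 36.6 and 10.5 CPM in EV RV and 17.2 and 4.86 CPM in Tox RV. *Klrd1* was at 14.2 and 1.90 CPM against 10.2 and 1.99 CPM. The groups overlapped for both. The defining gene of the NK list, *Ncr1*, was at 0 in all 4 libraries. The 3 regulatory T cell genes, which leave out *Il2ra*, summed to 353 to 401 CPM and overlapped between the groups, and *Foxp3* lay at 0.723 to 1.25 CPM.

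The levels of the 10 genes spanned more than 3 orders of magnitude. On the TPM scale, which corrects for transcript length and so allows genes to be compared, *Il2rb* was highest in all 4 libraries, at 689 and 591 in EV RV, compared with 585 and 529 in Tox RV, and ranked 155 to 205 among all 24369 genes. *Il2ra* averaged 410.3 TPM and *Il2rg* 319 TPM over the 4 libraries. *Il4ra*, which pairs with the gamma chain to bind IL-4, averaged 171 TPM, and *Stat5a* 149 TPM. *Il21r*, the receptor chain for IL-21, averaged 119 TPM. *Stat5b* averaged 74.2 TPM and was 7th of the 10 in every library. Below it came *Il15ra*, the chain that presents IL-15, at 20.5 TPM. *Il2* averaged 2.27 TPM, and *Il9r*, the receptor chain for IL-9, averaged 0.223 TPM.

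The order from *Il15ra* down to *Il9r*, ranks 8, 9 and 10, was the same in each library. The neighbours between ranks 2 and 6 were not separated beyond their spread. In EV RV replicate 1 the order was *Il2rg*, *Il2ra*, *Stat5a*, *Il21r* and *Il4ra*, in EV RV replicate 2 it was *Il2ra*, *Il4ra*, *Il2rg*, *Stat5a* and *Il21r*, and both Tox RV libraries had *Il2ra*, *Il2rg*, *Il4ra*, *Stat5a* and *Il21r*. All 10 genes together took 0.337% and 0.418% of the counts in EV RV, compared with 0.370% and 0.346% in Tox RV. These totals include *Rn45s*, at 24.7% of the counts in EV RV replicate 1 and 7.14% to 12% in the other libraries. Whether the groups overlap therefore cannot be read from these shares.

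**Figure D1:**
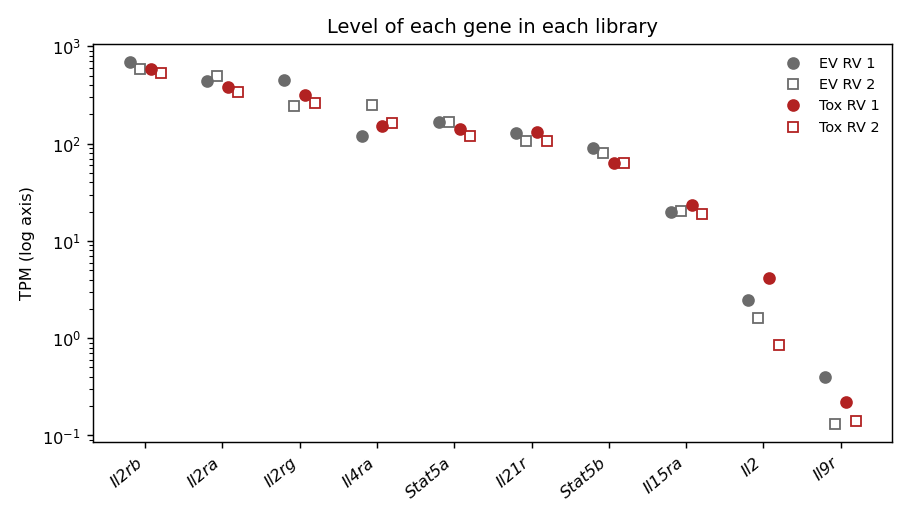
TPM (log axis) of the 10 genes, ordered by their mean over the 4 libraries, with EV RV in grey and Tox RV in red, replicate 1 as filled circles and replicate 2 as open squares. *Il2rb* lies highest at 529 to 689 TPM and *Il9r* lowest, and the spread between libraries is widest for *Il2*, *Il9r*, *Il4ra* and *Il2rg*.

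When Tox RV was compared with EV RV over all genes by edgeR's quasi-likelihood test, 0 of 14143 genes (0%) passed an adjusted p of 0.05, and 512 (3.62%) had an unadjusted p below 0.05, with Tox RV higher for 152 (1.07%) and lower for 360 (2.55%). DESeq2 called 22 of 18183 genes (0.121%), 11 in each direction. None of the 10 genes was among them, and 0 of the 10 reached an unadjusted p of 0.05 by edgeR. The fold changes were negative for 7 of the 10 and positive for 3, with a median log2 fold change of -0.16, beside a median of 0.0036 over all genes. *Il2ra*, *Stat5a* and *Stat5b* were lower in both Tox RV than in either EV RV library, 3 of 10 genes against 17.4% of all genes, and 0 of the 10 were higher in both against 18.6% of all genes. The groups overlapped for the other 7. In bulk RNA, fewer cells of a type and less RNA per cell cannot be told apart. A p that misses the threshold does not show equal levels, and the 95% intervals of each difference are given below with the values.

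*Il2*, the ligand of the pathway (chr3:37120523-37125959 on the minus strand of mm10), was detected at a low level although the cells had been restimulated. It had 50 and 62 counts in EV RV and 138 and 23 counts in Tox RV, or 1.19 and 0.815 CPM against 2.18 and 0.443 CPM. The highest and the lowest value were thus both in Tox RV, on either side of the EV RV libraries. Counting error alone gave exact Poisson 95% intervals of 1.83 to 2.58 CPM and 0.281 to 0.665 CPM for the Tox RV libraries, so these replicates differed by more than counting error, by 2.21 on the log2 scale. The log2 fold change was 0.41 (SE 0.74, 95% interval -1.40 to 2.23, adjusted p = 0.924 by edgeR), a fold of 1.33 with an interval from 0.378 to 4.70. It was -1.17 without Tox RV replicate 1 and 1.14 without Tox RV replicate 2. No direction can therefore be given for *Il2*. Of the 25-base words of its longest transcript, 16.7% also occurred in other genes, with 14.6% in *Ntan1*. What such shared sequence added to its few counts was not tested. The genes whose pattern over the 4 libraries was nearest to that of *Il2*, by the root mean square difference of centred log2 CPM, were *Tmem141* at 0.0601, *Fzd10* at 0.208 and *Sec31b* at 0.214. With 4 libraries such closeness was common, and 12323 of 14142 genes lay within 1 of *Il2*.

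The promoter of *Il2* is shown with that of *Il2ra* because these are the induced ligand and the induced receptor chain of the pathway and lie far apart on the level scale. Each window runs from 250 bases before to 50 bases after the start site in RefSeq (GRCm38.p6), in the direction of the gene, at chr3:37125905-37126204 on the minus strand for *Il2* and chr2:11642542-11642841 on the plus strand for *Il2ra*. Capitals mark matches, on either strand, to the NFAT core, GGAAA, and to the TATA box, whose letters are TATAAA.
Il2: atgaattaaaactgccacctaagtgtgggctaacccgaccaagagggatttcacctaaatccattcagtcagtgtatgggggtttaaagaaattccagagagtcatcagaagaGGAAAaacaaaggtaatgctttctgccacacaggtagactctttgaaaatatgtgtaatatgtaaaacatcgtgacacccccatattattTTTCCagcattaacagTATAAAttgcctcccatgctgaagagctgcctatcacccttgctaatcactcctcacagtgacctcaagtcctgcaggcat
Il2ra: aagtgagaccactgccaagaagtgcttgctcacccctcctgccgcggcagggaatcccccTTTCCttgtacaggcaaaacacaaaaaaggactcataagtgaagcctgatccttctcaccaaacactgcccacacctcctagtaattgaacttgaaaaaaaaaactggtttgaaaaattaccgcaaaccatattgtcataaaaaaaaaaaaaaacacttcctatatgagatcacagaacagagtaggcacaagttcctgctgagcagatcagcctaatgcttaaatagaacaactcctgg
The *Il2* window held the NFAT core at -137 to -133 and at -47 to -43 from the start and a TATA box at -31 to -26, and the *Il2ra* window held the NFAT core at -190 to -186. Of all 32851 such windows, 61.3% held the NFAT core and 13.6% the TATA box. The AP-1 site TGANTCA (7.81% of all windows), the octamer ATTTGCAT (1.74%) and the STAT element TTCNNNGAA (8.3%) were searched in the same way and had no match in these windows. Among the 12 windows of the 9 members with a promoter in the table, 7 held the NFAT core, 1 the AP-1 site, 1 the octamer, that of *Il4ra*, and 0 the STAT element. These matches describe the letters of the windows and no binding was measured.

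*Il2ra*, the alpha chain (chr2:11642807-11693193, plus strand), was at 1117 and 1322 CPM in EV RV and at 1053 and 934 CPM in Tox RV. The groups did not overlap, with a narrow gap between EV RV replicate 1 and Tox RV replicate 1. The group means were 1219 ± 145 and 994 ± 84.2 CPM (SD, n = 2 each). The log2 fold change was -0.29 (SE 0.17, 95% interval -0.73 to 0.14, adjusted p = 0.897 by edgeR), and it stayed between -0.42 and -0.16 as each library was left out. The groups overlapped when the libraries were scaled by their totals, a scaling that also takes up the *Rn45s* reads.

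*Il2rb*, the beta chain (chr15:78479256-78495271, minus strand), which also serves the IL-15 receptor, was at 1057 and 954 CPM in EV RV and 976 and 882 CPM in Tox RV. These values interleave. Its log2 fold change of -0.11 (SE 0.16, 95% interval -0.52 to 0.29, adjusted p = 0.912 by edgeR) was the nearest to 0 of the 3 IL-2 receptor chains. *Il2rg*, the common gamma chain (chrX:101264378-101268255, minus strand), was at 392 and 226 CPM in EV RV and 303 and 252 CPM in Tox RV. Both Tox RV values lay between the EV RV values, which differed by 0.80 on the log2 scale. The log2 fold change was -0.16 (SE 0.29, 95% interval -0.88 to 0.57, adjusted p = 0.929 by edgeR), and it was 0.29 without EV RV replicate 1. *Il2rg* shares 728 exon bases with *Gm20489* on the same strand, a gene that is not among those listed, so reads of the pair cannot be told apart here.

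**Figure D2:**
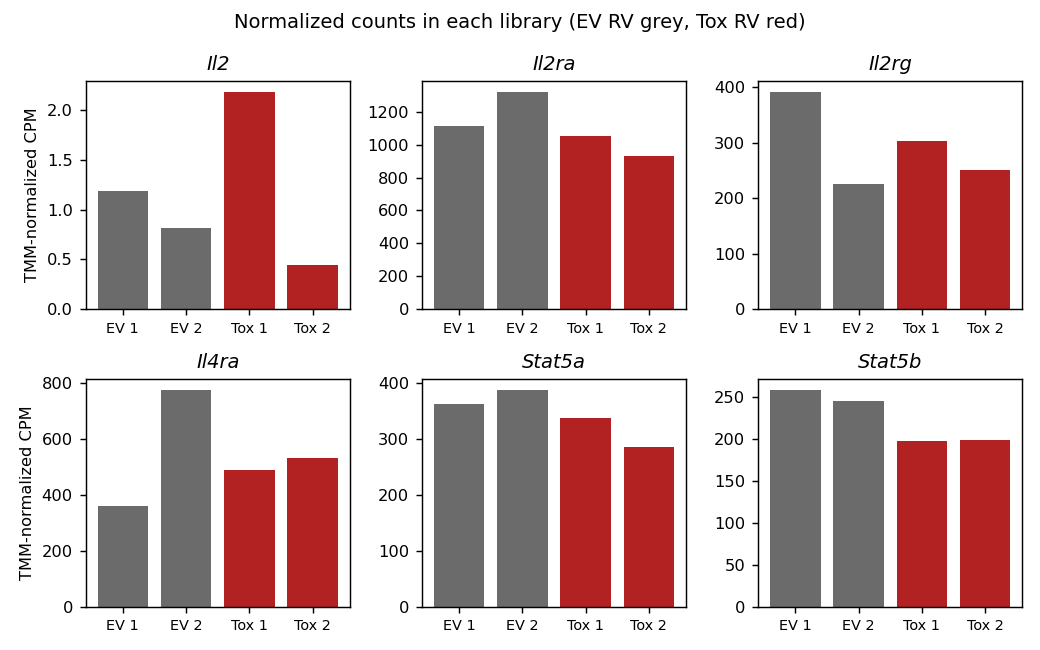
TMM-normalized CPM of 6 genes in each library, bars from 0, each panel with its own scale, EV RV in grey and Tox RV in red. The Tox RV bars are below both EV RV bars for *Il2ra*, *Stat5a* and *Stat5b*, lie between them for *Il2rg* and *Il4ra*, and lie on either side of them for *Il2*.

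The proportions of the 3 IL-2 receptor chains were also compared within a library, where the scaling between libraries drops out. On the TPM scale *Il2ra* was 0.633 and 0.830 of *Il2rb* in EV RV and 0.647 and 0.635 of it in Tox RV. The Tox RV ratios lay inside the range of the EV RV ratios. *Il2ra* was 0.974 and 2.00 times *Il2rg* in EV RV and 1.19 and 1.27 times in Tox RV. *Il2rb* was 1.54 and 2.41 times *Il2rg* in EV RV and 1.84 and 2.00 times in Tox RV. For all 3 ratios the spread between the EV RV libraries enclosed both Tox RV libraries, and the mean log2 ratio differed between the groups by -0.18, -0.18 and -0.0068. No test was run on single ratios, since with 2 libraries against 2 an exact two-sided permutation test cannot go below a p of 0.333.

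*Il4ra* (chr7:125552120-125579474, plus strand) was the least even of the well expressed members. It was at 361 and 776 CPM in EV RV and at 490 and 531 CPM in Tox RV. The EV RV libraries differed by 1.11 on the log2 scale and enclosed the Tox RV libraries. Its log2 fold change of -0.15 (SE 0.36, 95% interval -1.04 to 0.73, adjusted p = 0.942 by edgeR) was -0.61 without EV RV replicate 1 and 0.51 without EV RV replicate 2. The unadjusted p by edgeR was 0.00328 in the former fit and 0.00922 in the latter, with adjusted p of 0.379 and 0.0797. *Il21r* (chr7:125603429-125633570, plus strand) lies 23954 bases beyond *Il4ra* on the same strand with 0 protein-coding genes between. It did not share the spread of *Il4ra*, being at 190 and 167 CPM in EV RV and 210.4 and 169 CPM in Tox RV. The log2 fold change of *Il21r* was 0.088 (SE 0.19, 95% interval -0.38 to 0.56).

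*Il15ra* (chr2:11705290-11734317, plus strand) lies 12096 bases beyond *Il2ra* on the same strand, again with 0 protein-coding genes between. It was at 17.0 and 17.9 CPM in EV RV and 22.2 and 17.7 CPM in Tox RV. Only Tox RV replicate 1 stood above the others. The log2 fold change was 0.19 (SE 0.20, 95% interval -0.29 to 0.68). *Il9r* (chr11:32187541-32200279, minus strand) had 30 and 18 counts in EV RV and 26 and 14 counts in Tox RV, or 0.711 and 0.236 CPM against 0.411 and 0.270 CPM. The EV RV values enclosed the Tox RV values, and the log2 fold change was -0.42 (SE 0.68, 95% interval -2.09 to 1.25). Without EV RV replicate 1 it was 0.53. The interval admits both a lower and a higher level at this depth.

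*Stat5a* and *Stat5b* carry the signal of the beta and gamma chains into the nucleus. They stand head to head on chromosome 11, *Stat5b* at chr11:100780731-100850724 on the minus strand and *Stat5a* at chr11:100859351-100885169 on the plus strand, 8626 bases apart. *Stat5a* was at 362 and 389 CPM in EV RV and 338 and 285 CPM in Tox RV. *Stat5b* was at 259 and 245 CPM in EV RV and 197 and 198 CPM in Tox RV. Both genes were lower in both Tox RV libraries, and for *Stat5b* the gap between the groups was wider than the spread within either. The group means of *Stat5b* were 252 ± 9.78 and 198 ± 0.879 CPM (SD, n = 2 each). Its log2 fold change was -0.35 (SE 0.16, 95% interval -0.74 to 0.042), the lowest p of the 10 genes at an unadjusted 0.0712 and an adjusted p of 0.897 by edgeR, and 794th of all 14143 genes by p. It ranged from -0.38 to -0.32 as each library was left out. *Stat5a* had a log2 fold change of -0.27 (SE 0.17, 95% interval -0.70 to 0.16, adjusted p = 0.897 by edgeR), with a range of -0.40 to -0.15.

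The coding sequences of *Stat5a* and *Stat5b* are close copies, so the split of their reads rests in part on RSEM's model. Of the 25-base words of the longest protein-coding transcript of *Stat5a*, 24.4% were shared with transcripts of *Stat5b*. The longest identical coding run was 324 bases, of 2379 coding bases in *Stat5a* and 2358 in *Stat5b*. A stretch of 100 bases where both genes have the same letters is shown from exon 8 of *Stat5a* (chr11:100874340-100874439, plus strand) and exon 7 of *Stat5b* (chr11:100798285-100798384, minus strand), read from GRCm38.
Stat5a and Stat5b, shared: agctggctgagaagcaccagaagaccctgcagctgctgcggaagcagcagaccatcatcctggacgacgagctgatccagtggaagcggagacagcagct
Reads from such a stretch fit both genes. A less alike stretch of 60 bases is shown from exon 17 of *Stat5a* (chr11:100881124-100881183) and exon 16 of *Stat5b* (chr11:100787226-100787285). Here 42 of 60 letters match and capitals mark the 18 that differ. Stretches with fewer than 42 matches were left out of the search, so less alike stretches may exist.
Stat5a: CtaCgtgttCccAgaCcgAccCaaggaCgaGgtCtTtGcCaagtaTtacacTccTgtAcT
Stat5b: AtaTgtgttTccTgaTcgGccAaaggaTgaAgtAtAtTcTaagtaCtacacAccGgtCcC
Summing the counts of both genes removes the question of the split. The sum was 621 and 634 CPM in EV RV and 535 and 483 CPM in Tox RV, again without overlap of the groups. The log2 fold change of the sum was -0.30 (SE 0.16, 95% interval -0.70 to 0.096, adjusted p = 0.897 by edgeR). Within a library the ratio of *Stat5a* to *Stat5b* on the TPM scale was 1.86 and 2.08 in EV RV, compared with 2.26 and 1.89 in Tox RV, and the groups overlapped.

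**Figure D3:**
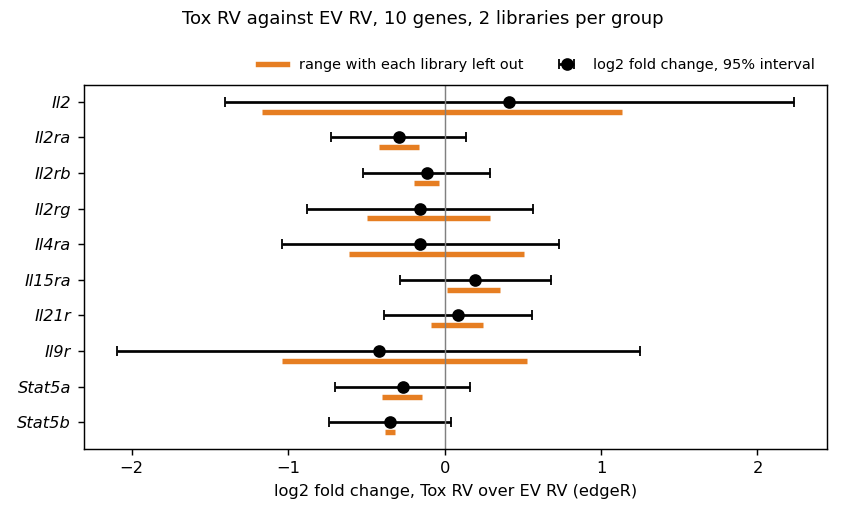
Log2 fold change of Tox RV over EV RV for the 10 genes by edgeR, points with 95% intervals, and in orange the range obtained when each library was left out in turn. Every interval includes 0, and the orange ranges of *Il2*, *Il2rg*, *Il4ra*, *Il21r* and *Il9r* cross 0. Those of *Il2ra*, *Il2rb*, *Stat5a* and *Stat5b* lie below 0, and that of *Il15ra* lies above it.

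The count of 3 lower members depended on the scaling and on single libraries. It was 3 with median-of-ratios scaling, against 18% of all genes. It was also 3 with library totals from which *Rn45s* had been removed, against 20.3%. On TPM values it was 4, as *Il2rb* joined them, against 23.2%. With library totals it was 1, *Stat5b* alone, against 11.4%. There *Il15ra* and *Il21r* were higher in both Tox RV libraries, 2 of 10 against 27.5% of all genes. With library totals the median log2 fold change of all genes was 0.124, against 0.0036 with TMM. The share of all genes lower in both Tox RV libraries went from 17.4% to 11.4%. Without EV RV replicate 1 the count was 4 of 10, against 33.5% of all genes, and without EV RV replicate 2 it was 6, against 41.7%. It was 5 without Tox RV replicate 1, against 29%, and 3 without Tox RV replicate 2, against 27.6%. *Stat5b* was the only member lower in both Tox RV libraries under all 5 scalings.

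RSEM also gives for each gene a transcript length averaged over its transcripts, which moves when their proportions move. Among the members with several transcripts, *Il15ra* (9 transcripts) averaged 1602.60 and 1561.62 bases in EV RV and 1600.45 and 1597.78 bases in Tox RV. *Stat5a* (2 transcripts) averaged 3781.92 and 3812.83 bases in EV RV and 3815.02 and 3812.81 bases in Tox RV. The range over libraries was 2.58% of the length for *Il15ra*, 0.870% for *Stat5a* and 0.409% for *Stat5b*, beside a median of 0.629% over 3978 genes with several transcripts. The groups overlapped for each of these genes.

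The other genes of the pathway were read from lists of ligands, receptors, kinases, STATs, target genes and regulators, and 0 genes of any list passed an adjusted p of 0.05 by edgeR or DESeq2. Of the 8 cytokines of the family or of related receptors, *Il2* included, 5 were tested. Their median log2 fold change, 0.41, is the value of *Il2* itself, for which no direction can be given. *Il9*, *Il7* and *Tslp* were at 0.197 CPM or less. *Il13*, which acts through *Il4ra*, was at 10.5 and 82.3 CPM in EV RV and 106.6 and 73.7 CPM in Tox RV, and *Il4* was at 1.68 and 38.1 CPM against 14.4 and 16.8 CPM. For both it was EV RV replicate 1 that was low. Of the 5 tested, 1 was lower and 0 were higher in both Tox RV libraries, against 17.4% and 18.6% of all genes. The lower gene was *Il15*, at 0.593 and 0.407 CPM against 0.221 and 0.270 CPM, with an unadjusted p of 0.0967 by edgeR. *Il21* was at 1.19, 0.815, 4.39 and 0.848 CPM in the order of EV RV and Tox RV replicates, and like *Il2* it was highest in Tox RV replicate 1. *Il15* and *Il21* were chosen after their values were seen.

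Among the other receptors and kinases, 7 of 8 genes were tested, 2 were higher and 0 lower in both Tox RV libraries, against 18.6% and 17.4% of all genes, and the median log2 fold change was 0.0052. The higher genes were *Crlf2*, a chain of the TSLP receptor, with a log2 fold change of 0.21, and *Il13ra1* at no more than 0.680 CPM. *Il13ra1* and other genes that are merely counted as higher or lower below were named after their values were seen. *Jak1*, the kinase on the beta chain, was at 411 and 196 CPM in EV RV and 278 and 241 CPM in Tox RV. *Jak3*, the kinase on the gamma chain, was at 281 and 222 CPM against 287 and 256 CPM. *Il7r*, the IL-7 receptor chain, was at 248 and 166 CPM against 192 and 166 CPM. The groups overlapped for all 3. Of the 5 other STAT genes, 1 was lower and 0 were higher in both Tox RV libraries, against 17.4% and 18.6% of all genes. The lower gene was *Stat2*, which acts in type I interferon signalling, at 95.8 and 69.4 CPM against 49.5 and 48.4 CPM. Its log2 fold change was -0.76 (SE 0.21, unadjusted p = 0.0124, adjusted p = 0.897 by edgeR). *Stat3*, *Stat6* and *Stat4* had log2 fold changes of 0.069, -0.050 and -0.36 with overlapping groups, and the median of the 5 was -0.25.

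Of 20 known target genes of IL-2 and STAT5, all tested, 6 were lower and 1 higher in both Tox RV libraries, against 17.4% and 18.6% of all genes. The median log2 fold change was -0.10, with 13 genes negative and 7 positive, and 3 genes lower and 1 higher had an unadjusted p below 0.05. *Pim2*, a survival kinase, was at 72.0 and 64.3 CPM in EV RV and 45.0 and 40.2 CPM in Tox RV, a log2 fold change of -0.68 (SE 0.17, adjusted p = 0.897 by edgeR). *Lta*, which encodes lymphotoxin alpha, was higher at 101 and 71.5 CPM against 50.2 and 50.8 CPM, a log2 fold change of 0.77 (SE 0.22, adjusted p = 0.897). *Socs2*, a feedback inhibitor of STAT5 signalling, was at 37.0 and 98.8 CPM in EV RV and 24.9 and 49.6 CPM in Tox RV, with overlapping groups. *Nfil3* had a log2 fold change of 0.24 and was lowest in EV RV replicate 1. Chosen after their values were seen, the other 5 that were lower in both were *Cish*, *Pim1*, *Myc*, *Ccnd2* and *Tnfrsf18*, with log2 fold changes from -0.57 to -0.17. *Cish*, the classical feedback gene of STAT5, was at 295 and 238 CPM in EV RV and 226 and 174 CPM in Tox RV. Without EV RV replicate 1, 16 of the 20 were lower in both Tox RV libraries than in the remaining EV RV library, against 33.5% of all genes. Without EV RV replicate 2 it was 7 of 20, against 41.7%, so the reading of this list depends on which EV RV library is kept. The count was 7 without Tox RV replicate 1, against 29%, and 8 without Tox RV replicate 2, against 27.6%.

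**Figure D4:**
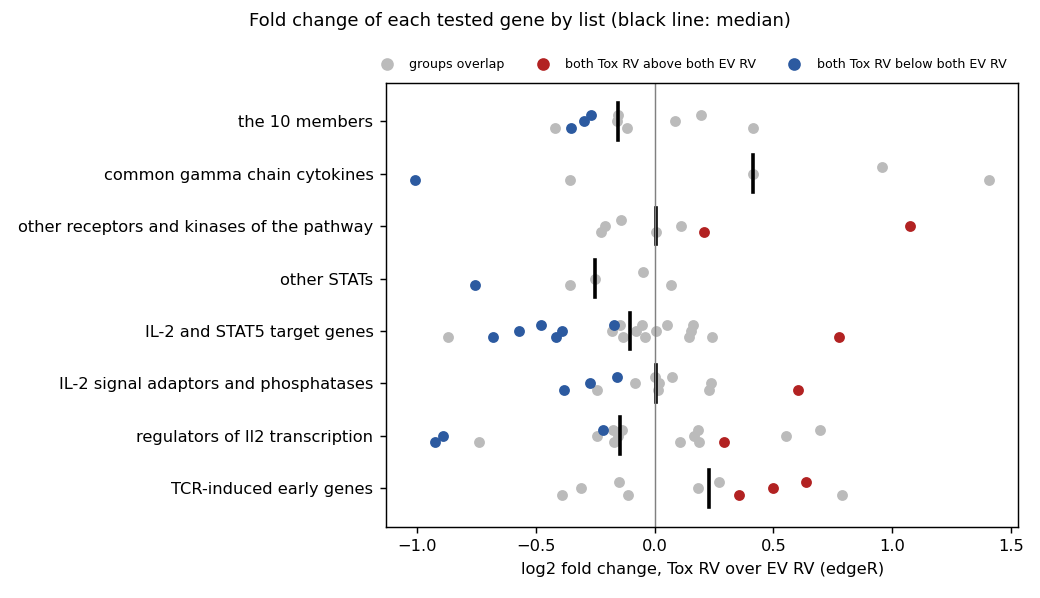
Log2 fold change of Tox RV over EV RV (edgeR) for each tested gene of the members and of 7 pathway lists, coloured by whether both Tox RV libraries lay above (red) or below (blue) both EV RV libraries, with the list median as a black line. Of the 20 target genes 6 are blue and 1 is red. Of the 10 early genes of T cell receptor stimulation 0 are blue and 3 are red. Over all genes, 17.4% were lower and 18.6% higher in both Tox RV libraries. The count of lower target genes changed with the library left out.

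Of 12 adaptors and phosphatases of IL-2 signalling, 1 was higher and 3 were lower in both Tox RV libraries, against 18.6% and 17.4% of all genes. The median log2 fold change was 0.0073. *Ptpn6*, which encodes the phosphatase SHP-1, a brake on receptor signalling, was higher at 335 and 274 CPM against 218 and 182 CPM, a log2 fold change of 0.60 (SE 0.19, unadjusted p = 0.0222, adjusted p = 0.897 by edgeR). The lower genes were *Gab2*, *Pik3cd* and *Sos1*, with log2 fold changes of -0.38, -0.27 and -0.16, and *Lck* at 0.23 had overlapping groups. Of 16 regulators of *Il2* transcription, 1 was higher and 3 were lower, against 18.6% and 17.4% of all genes, with a median of -0.14. With so few genes, neither list was told apart from all genes by these counts. *Jun*, a component of AP-1, was at 155 and 101 CPM in EV RV and 68.1 and 66.9 CPM in Tox RV, a log2 fold change of -0.92 (SE 0.24, unadjusted p = 0.00918). *Crem*, a repressor of *Il2*, was at 56.4 and 78.5 CPM against 33.3 and 39.5 CPM, a log2 fold change of -0.89 (SE 0.23, unadjusted p = 0.00832). *Ikzf1*, a further repressor, was higher at 475 and 469 CPM against 449 and 323 CPM. The other lower gene was *Nfkb1*, with a log2 fold change of -0.22. *Batf* was at 17.6 CPM in EV RV replicate 1 and at 58.7 to 62.4 CPM in the other 3 libraries.

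The 10 early genes of T cell receptor stimulation were read because the cells of both groups had been restimulated. No library came from cells without restimulation, so these genes cannot measure the restimulation itself. Of the 10, 3 were higher and 0 lower in both Tox RV libraries, against 18.6% and 17.4% of all genes, and the median log2 fold change was 0.23. With so few genes, this list too was not told apart from all genes by these counts. *Nr4a2* was higher, with a log2 fold change of 0.64 (SE 0.19, unadjusted p = 0.0175, adjusted p = 0.897 by edgeR). The other higher genes were *Egr2* and *Tnfrsf9*, with log2 fold changes of 0.36 and 0.50. *Nr4a1*, also known as Nur77, was at 86.3 and 36.3 CPM in EV RV and 127 and 85.0 CPM in Tox RV, and the groups overlapped. *Nr4a3* was at 59.6 and 20.2 CPM against 38.8 and 25.5 CPM. *Irf4* was at 659 and 1110 CPM against 652 and 699 CPM.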

How the data were processed

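RNA-seq was done on 4 libraries, 2 per group, grouped by the sample labels. After a FastQC check, the authors mapped reads with bowtie against transcripts of mm10 and estimated gene abundance with RSEM, separately for each library. The deposited expected counts come from RSEM without normalization. The deposited TPM and FPKM values are RSEM's, scaled for transcript length and depth. Effective and transcript lengths were used as deposited. A deposited table of the whole series was not used, because it is named as TPM and its columns sum to less than TPM must. Tool versions and the use of strand are not given in the sources used here, so overlapping and near-identical genes are uncertain. *Il4ra* shares 571 exon bases with *Gm44876* and *Stat5a* 72 with *Stat3*, on opposite strands.

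Expected counts were rounded and tested over all genes in R 4.3.3 with edgeR 4.0.16 (filterByExpr with a minimum count of 10, TMM, glmQLFit and glmQLFTest, no block, Benjamini-Hochberg adjustment). DESeq2, which the methods name, was an alternative (1.42.0), as was limma 3.58.1 on log2(TPM + 1) and log2(TPM + 0.1). Scripts were tested on simulated data. EV RV libraries totalled 46989997 and 74548723 expected counts and Tox RV libraries 61442264 and 49012254. Intervals from counts cover counting error only. The median SE of a log2 fold change was 0.24. Replicates counted as separate mice, and same-numbered replicates were not known to share a mouse.

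The members, lists and tests were chosen with earlier results of these data known. Named genes of a list were, among those with a mean of at least 5 CPM, the 2 highest and the 2 lowest fold changes; others were named for their role or after their values were seen. The list of genes that IL-2 represses is not reported here. Gene positions are from GENCODE M21 on GRCm38.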

Additional observations from a re-analysis of the deposited data

How the results depend on the processing

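None of the 10 genes passed an adjusted p of 0.05 under any alternative run. Over all genes, where 0 passed by the quasi-likelihood test, 22 passed with DESeq2, 22 without the filter on low counts, and 16 with a replicate block. Same-numbered libraries deviated together with a correlation of 0.302, from 2 pairs, and the labels do not tie the numbers to a mouse, so the block was not read as a pairing. Leaving out 1 library gave 1 to 600 genes. The count was 1 without EV RV replicate 1, 600 without EV RV replicate 2, 12 without Tox RV replicate 1 and 23 without Tox RV replicate 2, and a group left with 1 library was assumed to vary like the other. Among the 10 genes, the log2 fold change of *Il2rb* turned to 0.011 with library totals, *Il21r* to -0.00083 and -0.00086 by limma on log2(TPM + 1) and log2(TPM + 0.1), and *Il2* to -0.061 by limma on log2(TPM + 0.1). Leaving out libraries gave ranges that cross 0 for *Il2* (-1.17 to 1.14), *Il2rg* (-0.49 to 0.29), *Il4ra* (-0.61 to 0.51), *Il9r* (-1.04 to 0.53) and *Il21r* (-0.086 to 0.24). The causes were not tested. Chosen after seeing the data, the count of members lower in both Tox RV libraries was 3 (17.4% of all genes), but 1 (11.4%) with library totals. It was 4 (33.5%) without EV RV replicate 1, 6 (41.7%) without EV RV replicate 2, 5 (29%) without Tox RV replicate 1 and 3 (27.6%) without Tox RV replicate 2. The same count for STAT5 target genes was 6, and in the same order of left-out libraries 16, 7, 7 and 8 of 20, so the share over all genes rose as well, and at 41.7% it lay above the share of the list. The log2 ratios between members kept their direction with FPKM and with counts per effective length, but with a library left out, also chosen after seeing the data, each changed sign (*Il2ra* to *Il2rb* -0.37 to 0.019, *Il2ra* to *Il2rg* -0.70 to 0.34, *Il2rb* to *Il2rg* -0.33 to 0.32, *Stat5a* to *Stat5b* -0.057 to 0.20). *Il2* and *Il9r* rested on 14 to 138 counts per library, and their differences are the least precise.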
